A study of Mus musculus with 3 samples.

Results

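The interferon-stimulated genes described here are 44 listed mouse genes that type I interferon is known to induce, and all 44 were found among the 27179 genes of the deposited count table. They were chosen by measured values of these data, the difference between the 2 Pax5-/- libraries and the position of the wild-type library between or outside them. Those differences are therefore given as a description. The comparison of genotypes across all genes used the same libraries, and its counts of members are a description too. The study sequenced total RNA from cultured mouse pro-B cells, the B-cell precursors of the bone marrow that rearrange their heavy-chain genes, in 2 independent Pax5-/- samples and 1 wild-type sample. Pax5 is the transcription factor that commits these precursors to the B lineage. All 3 samples were B220+ bone marrow cells of the C57BL/6 strain grown on OP9, a stromal cell line. For both Pax5-/- samples the labels state male mice, day 7 of culture and removal of IgM+ cells. The wild-type sample came from a female mouse, and neither the day nor the removal is stated for it. Sex and genotype cannot be told apart in this design. No interferon or other stimulus is named for any sample.

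Type I interferons bind the receptor chains Ifnar1 and Ifnar2, and the kinases Jak1 and Tyk2 then phosphorylate STAT proteins, Stat2 among them. With Irf9 these form the complex ISGF3, which binds a DNA element called ISRE upstream of its targets. Interferon gamma acts through another receptor, and its targets carry an element called GAS. The induced genes encode antiviral effectors, nucleic acid sensors and parts of the signalling path itself, and many are also expressed at a low level without infection.

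The stretches upstream of 9 members that stand for the families below are printed here so that the elements can be seen beside the values. They are the bases just before a transcription start in RefSeq GRCm38.p6, written in the direction of transcription, and capitals mark every match to the ISRE core, which is GAAA, any 2 bases and GAAA again. A match on the opposite strand reads TTTC, any 2 bases and TTTC. Isg15 lies at chr4:156200819-156200916 (minus strand), Ifit1 at chr19:34640765-34640888 (plus strand), Ifit3 at chr19:34583353-34583528 (plus strand) and Ifit3b at chr19:34607749-34607956 (plus strand). Rsad2 lies at chr12:26456453-26456592 (minus strand), Oas1a at chr5:120907526-120907643 (minus strand), Oas3 at chr5:120777660-120777754 (minus strand), Igtp at chr11:58199491-58199555 (plus strand) and Bst2 at chr8:71537473-71537628 (minus strand).
Isg15: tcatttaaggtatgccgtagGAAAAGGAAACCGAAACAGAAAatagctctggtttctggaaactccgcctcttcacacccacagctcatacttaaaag
Ifit1: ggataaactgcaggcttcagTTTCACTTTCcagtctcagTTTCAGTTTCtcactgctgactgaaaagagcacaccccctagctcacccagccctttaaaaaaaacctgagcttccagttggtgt
Ifit3: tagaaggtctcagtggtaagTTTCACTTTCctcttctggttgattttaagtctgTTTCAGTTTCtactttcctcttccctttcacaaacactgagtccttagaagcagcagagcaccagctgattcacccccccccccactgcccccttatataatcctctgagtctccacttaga
Ifit3b: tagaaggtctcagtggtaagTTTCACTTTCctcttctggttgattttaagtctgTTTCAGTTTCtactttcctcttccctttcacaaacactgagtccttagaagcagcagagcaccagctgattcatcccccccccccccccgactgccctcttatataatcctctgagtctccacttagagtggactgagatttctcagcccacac
Rsad2: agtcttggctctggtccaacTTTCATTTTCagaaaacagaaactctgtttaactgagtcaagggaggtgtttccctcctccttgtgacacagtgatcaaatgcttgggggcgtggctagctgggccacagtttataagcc
Oas1a: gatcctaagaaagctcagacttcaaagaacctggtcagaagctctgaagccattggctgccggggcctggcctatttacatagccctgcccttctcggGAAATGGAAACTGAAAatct
Oas3: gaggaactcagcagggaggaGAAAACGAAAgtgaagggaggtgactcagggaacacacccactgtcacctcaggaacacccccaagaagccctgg
Igtp: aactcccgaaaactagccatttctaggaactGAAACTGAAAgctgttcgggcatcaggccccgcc
Bst2: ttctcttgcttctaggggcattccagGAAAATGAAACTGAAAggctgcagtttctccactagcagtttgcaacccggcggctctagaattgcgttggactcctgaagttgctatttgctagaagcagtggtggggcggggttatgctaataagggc
In Isg15, Oas1a and Bst2 neighbouring matches overlapped, so that 3, 2 and 2 matches form 1 run of capitals. Ifit3 and Ifit3b, neighbours on chromosome 19, had the same base at 188 of 218 aligned positions (86.2%) upstream of their starts, including both matches. Of the 44 members, 33 had an upstream sequence of 250 bases in the RefSeq table. The start used can lie inside the RefSeq span of a gene, as for Ifit2, Ifit3 and Ifit3b. The ISRE core was found in 15 of these 33 (45.5%), against 936 of 27025 genes of the same table (3.46%). The GAS core TTCNNNGAA was found in 6 of 33 (18.2%), against 2197 genes (8.13%), with both strands searched and overlap between the motifs allowed. Oas1a, Igtp and Bst2 held both. A match is a description of the letters and not a site shown to be bound. As a description, the 15 members with an ISRE match had a median log2 difference between the Pax5-/- libraries of 5.28. The 18 members without one had 3.20. The fold ranges overlapped, from 2.23 to at least 357 with a match and from 2.23 to 344 without. The similar neighbours Ifit3 and Ifit3b were counted separately among those with a match. Ifit2 was counted among those without, although part of the bases searched for it lay inside the gene. The members were chosen by this same difference, and a link between a match and its size was not tested.

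Pax5-/- sample 1 held more RNA of every one of the 44 genes than Pax5-/- sample 2, and the wild type lay between them for most. The members took 59140 of 6487846 counts in Pax5-/- sample 1 (0.912%), 8665 of 6697879 in Pax5-/- sample 2 (0.129%) and 26426 of 6530057 in the wild type (0.405%). In counts per 1000000 counts of a library (CPM), scaled between libraries by TMM, their sum was 7.17-fold higher in Pax5-/- sample 1 than in sample 2, and the wild type stood 3.24-fold above sample 2 and 2.22-fold below sample 1. Since the samples are bulk RNA, fewer cells that express these genes and less RNA per cell cannot be told apart. In the sentences that follow, 3 numbers in a row are the counts in Pax5-/- sample 1, Pax5-/- sample 2 and the wild type. Folds are ratios of scaled CPM, and the intervals beside them are exact 95% Clopper-Pearson intervals that cover counting error between 2 libraries only. They compare those libraries, not conditions.

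**Figure D1:**
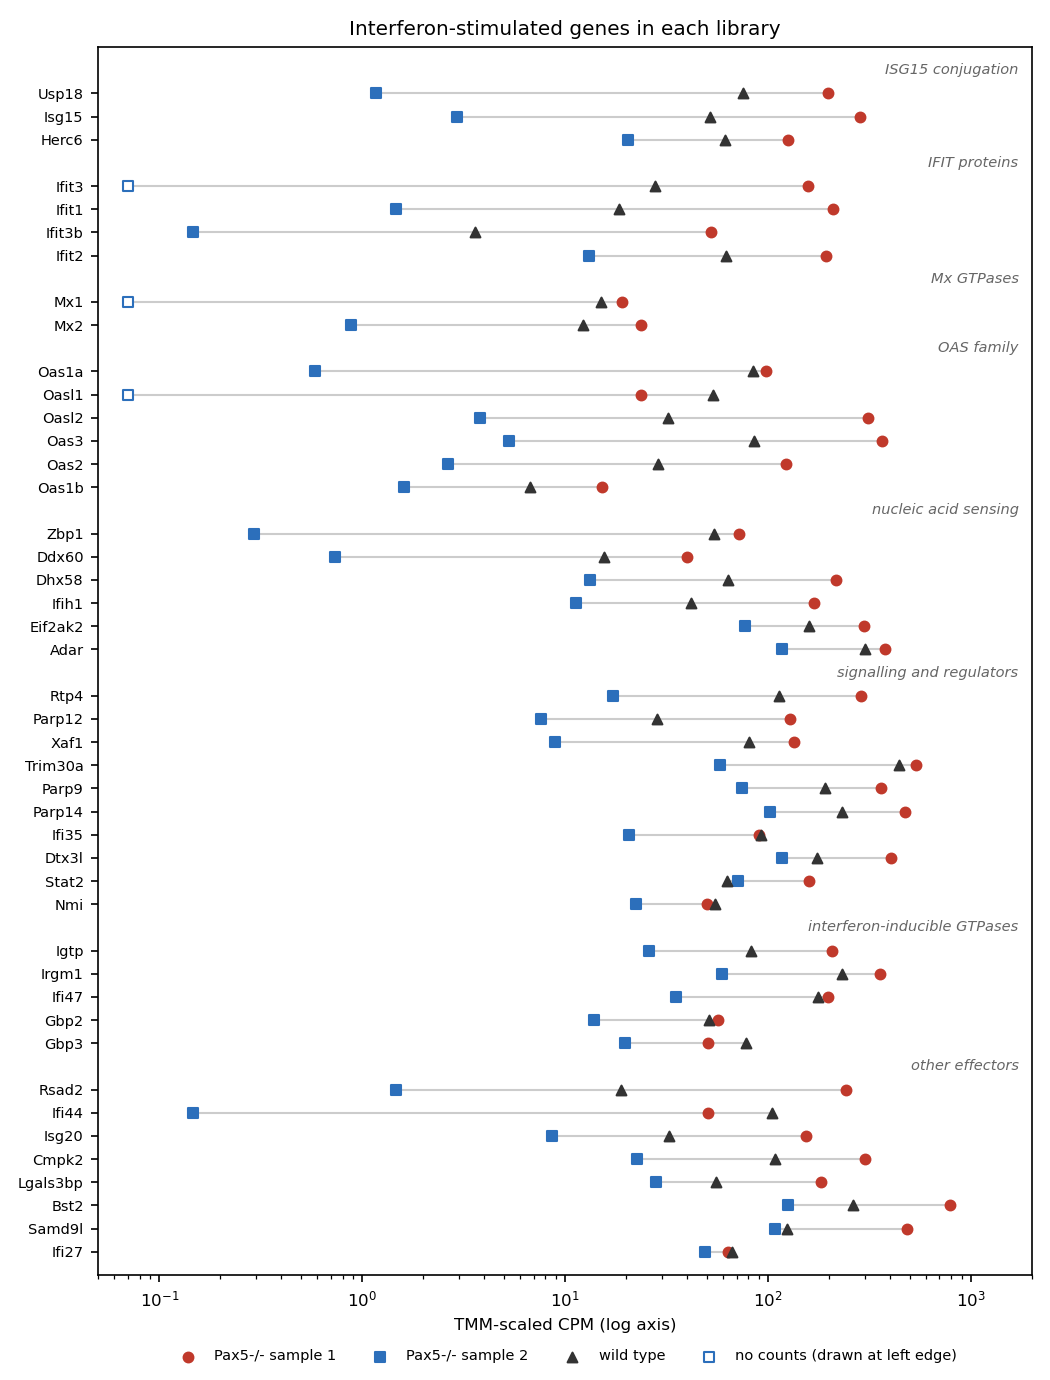
Scaled CPM of each of the 44 genes on a log axis, with 1 point per library and a grey line from the lowest to the highest. Pax5-/- sample 1 (circles) lies to the right of Pax5-/- sample 2 (squares) in all 44, and Ifit3, Mx1 and Oasl1, which had no counts in sample 2, are drawn as open squares at the left edge.

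The ISG15 group showed the pattern at high counts. Isg15, a ubiquitin-like modifier that interferon induces strongly, had 1832, 20 and 334 counts. That was 96.3-fold more in Pax5-/- sample 1 than in sample 2 (62.1 to 158), and the mean of both Pax5-/- samples was 143 ± 198 CPM (SD, n = 2). Usp18, the protease that removes ISG15 and restrains the interferon receptor, had 1275, 8 and 485 counts, a 167-fold difference (84.7 to 389). Herc6, a ligase that attaches ISG15 in the mouse, had 815, 139 and 393 counts and differed less, 6.16-fold. The wild type was intermediate for all 3 genes, and for Usp18 it stood 64.4-fold above sample 2 and 2.60-fold below sample 1.

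The IFIT genes encode proteins that bind foreign RNA, and 4 of them lie together at chr19:34550550-34650009. Ifit3 had 1018, 0 and 179 counts. Against a floor of 3 counts, set in place of the 0, that was 357-fold more in Pax5-/- sample 1 than in sample 2. This nominal bound leaves out the counting error of sample 1. Ifit1 had 1356, 10 and 118 counts, a 142-fold difference (77.2 to 298), and Ifit3b had 339, 1 and 23, a ratio of 356 with an interval of 63.5 to 14112. Ifit2 had 1255, 89 and 398 counts and differed 14.8-fold, although it lies beside the other 3 genes. The search before a listed start of Ifit2 found no ISRE match and 1 GAS match. The window with that match began at chr19:34550444 and the RefSeq span of Ifit2 at 34550550. Part of the bases searched therefore lay inside the gene, and the rest of its upstream region was not searched. A link between these matches and the fold was not tested. Ifit3 and Ifit3b are near copies: 51.2% of the 50-base windows of Ifit3 transcripts also occur in Ifit3b, so that their separate counts are uncertain. The RefSeq span of Ifit1bl1 also covers Ifit1 and Ifit3b.

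The Mx genes encode dynamin-like GTPases that act against viruses, and the C57BL/6 strain is known to carry a defective Mx1 allele. Mx1 had 123, 0 and 97 counts, at least 43.1-fold more in Pax5-/- sample 1 than in sample 2. Mx2 had 154, 6 and 79 counts, a 27.0-fold difference (12.1 to 74.6). Both had few counts in every library, and for Mx1 the counts of Pax5-/- sample 1 and the wild type did not differ beyond counting error.

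The active enzymes of the OAS family make oligoadenylates that activate the RNA-degrading enzyme RNase L, but not every member of the family is active. All 6 members were at least 8-fold higher in Pax5-/- sample 1 than in sample 2. Oas3 had 2371, 36 and 548 counts, a 69.2-fold difference (49.8 to 99.1), and Oasl2 had 2019, 26 and 206, an 81.6-fold difference (55.5 to 125). Oas2 had 799, 18 and 184 counts, and Oas1b, whose protein is truncated in C57BL/6, had 99, 11 and 43. These 4 genes stood in the same order of libraries, with the wild type well below Pax5-/- sample 1. Oas1a had 636, 4 and 541 counts, 167-fold apart between the Pax5-/- libraries (64.9 to 615), yet only 1.16-fold apart between Pax5-/- sample 1 and the wild type. Of the Oas1a windows of 50 bases, 57.6% also occur in Oas1g, so that reads could be split between them. Oasl1 had 153, 0 and 345 counts: it was not detected in sample 2 and was highest in the wild type, 2.28-fold above Pax5-/- sample 1.

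The 6 genes of nucleic acid sensing differed between 3.22-fold for Adar and 245-fold for Zbp1. Zbp1, a sensor of Z-form nucleic acid, had 467, 2 and 349 counts, a ratio of 245 (67.5 to 2032) between the Pax5-/- libraries, and Ddx60, a helicase linked to RNA sensing, had 260, 5 and 100. Ifih1, which encodes the RNA sensor MDA5, had 1093, 77 and 268 counts (14.9-fold), and its relative Dhx58, which encodes LGP2, had 1398, 90 and 409 (16.3-fold). These 4 genes were at least 8-fold apart. Eif2ak2, which encodes the RNA-dependent kinase PKR, had 1923, 527 and 1026 counts and differed 3.83-fold (3.48 to 4.23). Adar, which edits double-stranded RNA, had 2436, 796 and 1927 and differed 3.22-fold (2.97 to 3.49).

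Signalling components and regulators showed a smaller span, from 2.23-fold to 16.9-fold over 10 genes. Stat2, the ISGF3 subunit specific to type I and III interferon, had 1027, 484 and 405 counts. It was the 1 member with the wild type lowest, although the wild type and Pax5-/- sample 2 did not differ beyond counting error. Nmi had 323, 152 and 350 counts, and its binding partner Ifi35 had 588, 140 and 590. For both, Pax5-/- sample 1 and the wild type did not differ beyond counting error while sample 2 was lower. Parp9 and Dtx3l, which form a complex, had 2342, 507 and 1225 and 2623, 799 and 1121 counts, and the neighbouring Parp14 had 3060, 695 and 1484. These 3 genes share chr16:35831892-35972621 and differed by 3.45-fold to 4.85-fold. Parp9 and Dtx3l overlap by 558 bases, and without a stated strand setting reads there cannot be assigned.

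Parp12, another ADP-ribosyltransferase, had 836, 52 and 183 counts, a 16.9-fold difference. Rtp4, a chaperone of receptors at the membrane, had 1868, 118 and 728 (16.6-fold). Xaf1, which acts in cell death, had 871, 61 and 518 (15.0-fold). For all 3 the wild type lay between the Pax5-/- libraries. Trim30a, a RING-domain regulator, had 3485, 394 and 2839 counts: the wild type stood 7.65-fold above Pax5-/- sample 2 and only 1.21-fold below sample 1.

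The interferon-inducible GTPases, which attack the vacuoles of intracellular pathogens and respond to interferon gamma as well, differed by 2.59-fold to 7.95-fold and none of the 5 reached 8-fold. Igtp had 1339, 177 and 528 counts, and Irgm1 had 2309, 404 and 1490. Ifi47 had 1278, 239 and 1128 counts, and Gbp2 had 366, 95 and 328. For these last 2 genes Pax5-/- sample 1 was 1.12-fold and 1.10-fold above the wild type, and for Gbp2 that was within counting error. Gbp3 had 330, 134 and 499 counts and was highest in the wild type.

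The remaining 8 effectors held the smallest difference of all and several of the largest. Rsad2, which encodes the antiviral enzyme viperin, had 1576, 10 and 121 counts, a 166-fold difference between the Pax5-/- libraries (89.8 to 346). Its neighbour Cmpk2, a nucleotide kinase, had 1940, 154 and 694 counts and differed 13.2-fold, so that 2 genes within chr12:26442743-26479837 stood more than 10-fold apart in their difference. Ifi44, an antiviral protein, had 327, 1 and 668 counts. It was nearly absent from Pax5-/- sample 2 and highest in the wild type, with a ratio of 344 between the Pax5-/- libraries (61.2 to 13614). Isg20, an exonuclease, had 993, 59 and 209 counts, and Lgals3bp, a secreted glycoprotein, had 1187, 191 and 356.

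Bst2, which encodes tetherin and holds budding virus at the cell surface, had 5098, 858 and 1685 counts. In CPM per kilobase of gene length it was the most abundant member in all 3 libraries, at 1022, 164 and 341. Samd9l, an antiviral restriction factor, had 3139, 742 and 800 counts, so that the wild type lay near Pax5-/- sample 2. Ifi27 had 414, 334 and 425 counts. It was the 1 member under 2-fold, with 1.30-fold between the Pax5-/- libraries (1.12 to 1.51). Its whole RefSeq span, 6057 bases, is covered by that of the related Ifi27l2a, which had 1848, 76 and 5452 counts. Without a stated strand setting, how reads were assigned between these genes is not known.

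Across the 44 genes the median log2 difference, Pax5-/- sample 1 minus sample 2, was 3.86 on the log2 CPM scale with a prior count of 2, or 14.5-fold, with quartiles of 2.26 and 6.09. With the 3 genes at 0 counted at the floor of 3 counts it was 3.89. The same median over all 11783 genes tested was -0.02, with quartiles of -0.21 and 0.15. A 2-fold or larger excess in Pax5-/- sample 1 was seen in 43 of 44 members and in 2.68% of all genes tested. At 8-fold the counts were 26 members and 0.569% of all genes, and 0 members but 1.87% of all genes were 2-fold lower in sample 1. The rule that chose the genes used this contrast, so nothing is read from these shares. The members nearest the 2-fold border were Ifi27 below it and Stat2, Nmi and Gbp3 above it. Ranked by excess in Pax5-/- sample 1 over sample 2, 24 members were among the first 50 genes tested, and Ifi27 was at rank 1201.

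**Figure D2:**
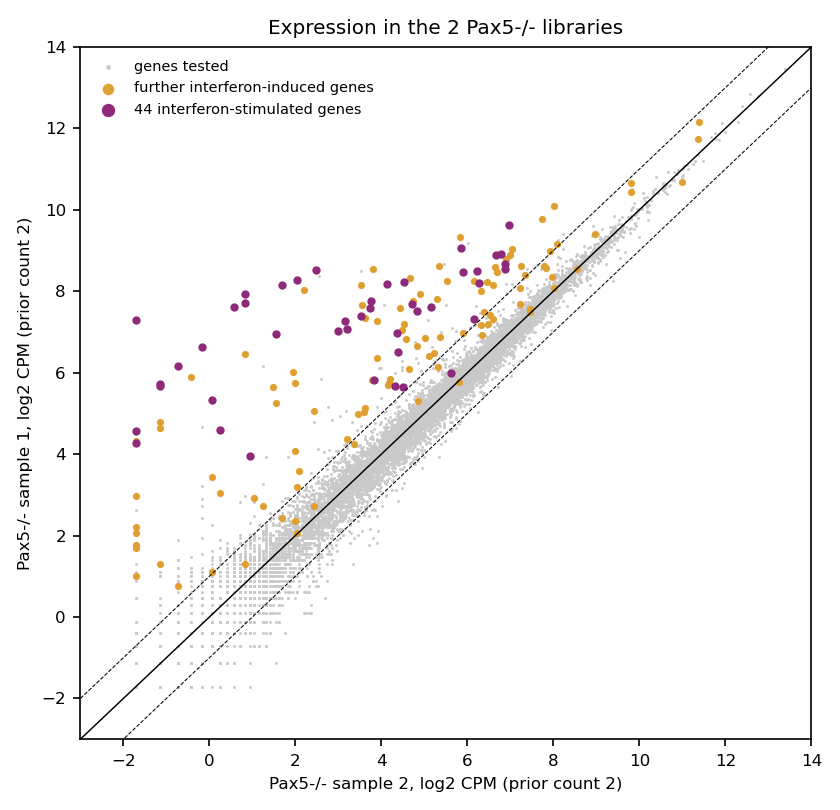
Log2 CPM (prior count 2) of the 11783 genes tested in Pax5-/- sample 2 (x axis) and Pax5-/- sample 1 (y axis), with the 44 interferon-stimulated genes and a list of further interferon-induced genes in colour. The solid line marks equal values and the dashed lines a 2-fold difference, and 43 of the 44 genes lie above the upper dashed line.

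In Pax5-/- sample 2, 12 members had 10 or fewer counts, and in Pax5-/- sample 1 those 12 had between 123 and 1576. Neighbours within 100000 bases accounted for 19 of the members, on 5 chromosomes among the 13 that hold any.

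The wild type lay between the Pax5-/- libraries, with sample 1 highest, for 37 of 44 members and for 7.1% of all genes tested. It lay above both for 6 members, Oasl1, Nmi, Ifi35, Gbp3, Ifi44 and Ifi27 (42.9% of all genes), and below both for Stat2 (42.3% of all genes). Pax5-/- sample 1 was at least 2-fold above the wild type for 26 members (12.9% of all genes), with a median of 2.41-fold, and Pax5-/- sample 2 at least 2-fold below it for 39 (10.7% of all genes), with the wild type a median 4.70-fold higher. Both held for 22 members and for 0.356% of all genes. Sample 1 and the wild type did not differ beyond counting error for 5 members, Mx1, Nmi, Ifi35, Gbp2 and Ifi27. Beyond that error, 36 members were higher in sample 1 and 3, Oasl1, Gbp3 and Ifi44, were higher in the wild type. Both comparisons share the wild-type library. The position of the wild type was also part of the choice of the genes.

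**Figure D3:**
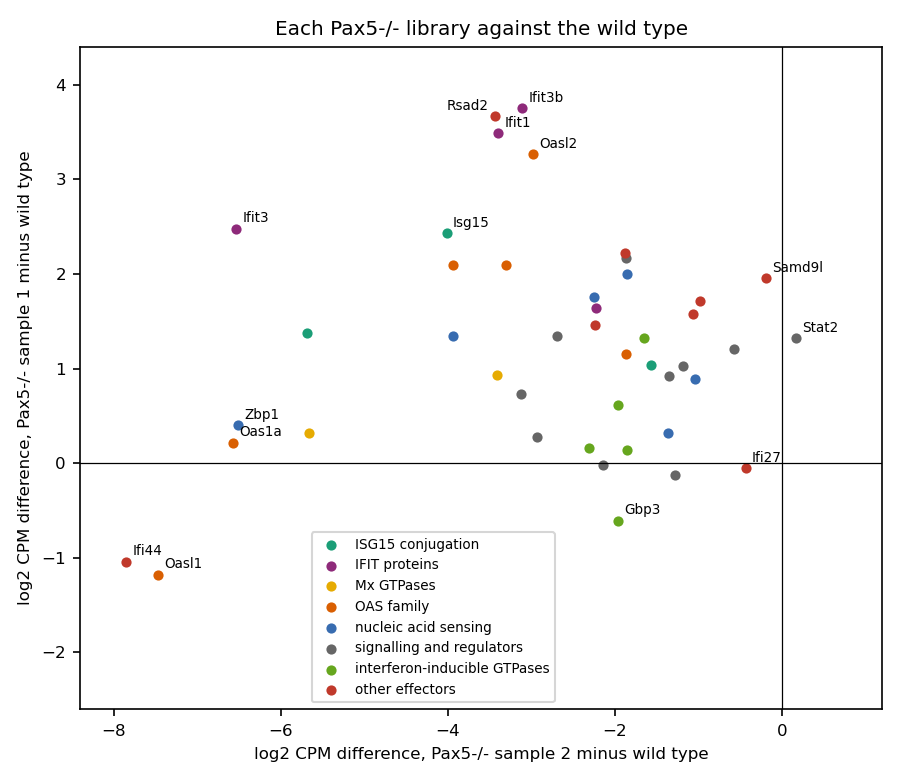
Difference from the wild type in log2 CPM (prior count 2) for Pax5-/- sample 2 (x axis) and Pax5-/- sample 1 (y axis), 1 point per gene, coloured by role. Most of the 44 points lie in the upper left part, above the wild type in sample 1 and below it in sample 2, with Ifi44 and Oasl1 at the lower left and Stat2 at the right.

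With 1 wild-type library, the comparison of genotypes takes its spread from the 2 Pax5-/- samples alone, and the members were chosen by the gap between those samples. A count of members called is therefore set by the choice, and nothing is read from it. In edgeR's quasi-likelihood test with Benjamini-Hochberg adjustment over all 11783 genes, 9.53% of genes were higher and 8.55% lower in Pax5-/-. Of the 44 members, 0 passed in edgeR, 0 had an unadjusted p under 0.05 and 0 passed in DESeq2. The median standard error of their log2 fold change was 1.48, against 0.20 over all genes tested. As a description, the average of the members over genotype turned on which Pax5-/- sample was used: the median log2 difference from the wild type was -0.45 with both, -2.23 without sample 1 and 1.27 without sample 2.

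The genes of interferon signalling themselves differed in only a few places between the Pax5-/- libraries. Interferon genes were not detectable at this depth beyond single reads: 16 of 21 had no counts in any library and the others at most 1, where 3 counts correspond to 0.463, 0.440 and 0.467 CPM. The receptor chains Ifnar1 and Ifnar2 had 909, 1055 and 601 and 822, 949 and 416 counts, alike in both Pax5-/- samples. Ifnar2 was higher in Pax5-/- than in the wild type (log2 fold change 1.04, standard error 0.16, adjusted p = 0.0240, edgeR), as were the interferon gamma receptor chain Ifngr1 and the shared chain Il10rb, and Ifngr2 was lower. For Ifnar1 the adjusted p was 0.0569 (edgeR).

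Among 16 receptor, kinase and STAT genes, 13 lay within 2-fold between the Pax5-/- libraries. Irf9, the DNA-binding subunit of ISGF3, had 822, 284 and 778 counts, 3.04-fold more in Pax5-/- sample 1 than in sample 2, with the wild type between. Ifnlr1, a chain of the interferon lambda receptor, was lower in sample 1. Ifnlr1 had 29, 64 and 7 counts. The kinases Jak1 and Tyk2 had 1927, 1995 and 1968 and 397, 415 and 281 counts, without such a gap.

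Of 11 interferon regulatory factors, Irf7, which interferon induces and which drives interferon transcription, had 2361, 77 and 280 counts, a 32.2-fold difference between the Pax5-/- libraries (25.7 to 41.0). The other 10 lay within 2-fold. Irf4, Irf5 and Irf8 were lower in Pax5-/- than in the wild type in both samples (edgeR adjusted p = 0.00323, 0.0254 and 0.00379). None of 11 feedback inhibitors of the Socs, Pias and Ptpn families differed 2-fold, and Socs1, an inhibitor of the JAK kinases, had 154, 160 and 179 counts. Usp18, which also restrains the receptor, is not on that list but among the members, with 1275, 8 and 485 counts. Of 24 sensors and adaptors, 6 were 2-fold higher in Pax5-/- sample 1, among them Ddx58, which encodes RIG-I, with 2658, 295 and 890 counts, and Tlr7, an endosomal RNA sensor, with 1297, 496 and 216. Trex1 and Samhd1, which degrade DNA and nucleotides, had 339, 136 and 279 and 1871, 887 and 1277 counts. Cgas, the DNA sensor that acts through Sting1, had 480, 250 and 2, and Tlr3 had at most 15 counts. The adaptor Sting1 had 1532, 1557 and 433 counts, equal in both Pax5-/- samples and higher than in the wild type (adjusted p = 0.00625, edgeR).

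A further list of 120 interferon-induced genes outside the 44, of which 116 were found, was counted in the same way. The filter on low counts was passed by 104, and of these 75 were at least 2-fold higher in Pax5-/- sample 1, 0 were 2-fold lower and 29 lay between. Their median log2 difference was 1.68, against -0.02 over all genes tested, and a gene that passed the filter only through the library where it is high had to differ. The other 12 had too few counts for a direction. Ifi208 had 1688, 29 and 704 counts, and Ifit1bl1 had 571, 10 and 221. Ube2l6, the enzyme that carries ISG15 to its ligases, had 1047, 82 and 583, and Uba7, which activates ISG15, had 762, 280 and 519. Ifi204 and Ifi207 had 385, 3 and 4 and 159, 1 and 2 counts, so that there the wild type was low with Pax5-/- sample 2. Ifi213 and the GTPase Iigp1 had 176, 1 and 394 and 127, 0 and 269 counts, and were highest in the wild type. The list was drawn up with earlier results of these data known and is no independent support.

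Some interferon-induced genes did not share the gap. Ifitm1, a membrane protein that hinders viral entry, had 10649, 13784 and 34 counts, its relative Ifitm2 had 2410, 2547 and 542, and the GTPase Gbp8 had 350, 377 and 5. These 3 genes were alike in both Pax5-/- samples and higher than in the wild type (edgeR adjusted p = 0.00272, 0.00415 and 0.00284). The related Ifitm3 had 7057, 1770 and 831 counts, with a 4.19-fold gap between the Pax5-/- libraries. On the further list 5 genes were higher and 4 lower in Pax5-/- by edgeR, out of 104 tested, against 9.53% and 8.55% of all genes tested. A gap between the Pax5-/- samples widens the spread in this test, so nothing is read from these counts.

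**Figure D4:**
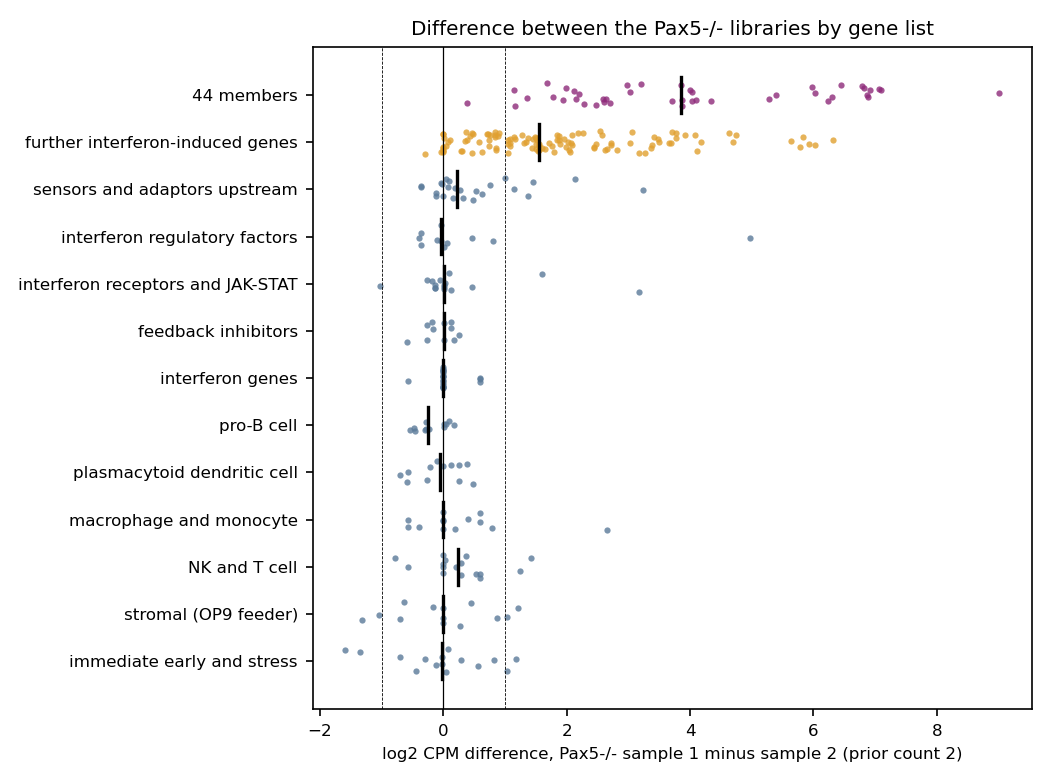
Log2 difference in CPM (prior count 2), Pax5-/- sample 1 minus sample 2, for the 44 genes, the further interferon-induced genes, other lists of the pathway and lists of cell type markers, with 1 point per gene and a black bar at each median. Dashed lines mark a 2-fold difference: the medians of the 44 genes and of the further list are 3.86 and, over the 116 found with those of few counts included, 1.55, and those of the other lists lie between -0.26 and 0.24.

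Marker lists of the cells that the cultures could hold were nearer between the Pax5-/- libraries. Summed over the 12 pro-B cell markers the level was 3537, 3878 and 5887 CPM, and none of the 12 differed 2-fold between the Pax5-/- libraries. Against the wild type 5 of the 12 were higher and 5 lower in Pax5-/- by edgeR, so that this sum hid opposite differences. Over all genes tested the shares were 9.53% higher and 8.55% lower. The markers of plasmacytoid dendritic cells, which make much interferon, summed to 1055, 945 and 1023 CPM. Again 0 of 12 differed 2-fold between the Pax5-/- libraries. Against the wild type the near-equal sums hid opposite differences: of the 10 tested, 5 were higher and 1 lower in Pax5-/- by edgeR. The lower gene was Irf8, at 65.5, 70.3 and 367 CPM. Macrophage and monocyte markers summed to 1423, 1154 and 17.6 CPM, with 1 gene holding 8149 of the 9226 counts in Pax5-/- sample 1. Of these 13, only Ly6c2, itself on the further interferon-induced list, differed 2-fold (943, 155 and 26 counts), and Fcgr1, C1qa, C1qb and C1qc were at 0 in every library. Stromal markers summed to 833, 732 and 505 CPM, with Dcn and Lum at 0, 2 of 13 higher and 2 lower by 2-fold. Their highest count for a single gene in any library was 4976, against sums of 5404, 4988 and 3239 counts. The sums of these 2 lists thus follow mainly a single gene and are no measure of cell number. Natural killer and T-cell markers summed to 200.3, 183 and 7.79 CPM, with Klrb1c (23, 9 and 7 counts) and Gzma (34, 12 and 0) of the 16 higher in Pax5-/- sample 1 by 2-fold. The part of these cells in the differences was not tested.

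Other genes also separated the Pax5-/- libraries. Of the 316 genes tested that were at least 2-fold higher in Pax5-/- sample 1, 43 were members (13.6% of those genes and 97.7% of the members), 75 were on the further list, 9 on the other pathway lists and 189 on none. Among the 20 genes with the largest excess and a mean of at least 5 CPM, 13 were members and 6 were on the further list. Of the 67 genes at 8-fold, 26 were members, 27 on the further list, 3 on other pathway lists, Irf7 and Ddx58 among them, and 11 on none. To be on none means only absence from the members, the further list and the other pathway lists, since marker lists were not counted here. It does not show that interferon leaves a gene unchanged. Ifi214 (38, 0 and 146 counts) was such a gene. The 220 genes that were 2-fold lower in sample 1 held no member, and Ifnlr1 was the only one on the further list or the other pathway lists.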

How the data were processed

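Gene counts of 3 RNA-seq libraries (2 Pax5-/-, 1 wild type, grouped by title) were used. The deposited counts were made by the authors with featureCounts on genome build mm10, per the submitters' processing notes; the aligner, tool versions, annotation and strandedness were not given in the sources used here. Each gene has an Entrez number, a length and an unnormalized whole-number count, per the file headers. Entrez numbers were matched to RefSeq symbols of GRCm38.p6 (25275 matched, 1904 did not). Library totals were 6487846, 6697879 and 6530057 counts. The labels call the Pax5-/- samples independent without naming animals, so p-values measure the spread between these samples.

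In R 4.3.3 with edgeR 4.0.16, 11783 genes passed filterByExpr (minimum count 10, all 44 members among them), TMM factors were 1.00, 1.018 and 0.983, and genotype was tested with glmQLFit and glmQLFTest at a Benjamini-Hochberg adjusted p of 0.05, with 1 residual degree of freedom. The test was checked on simulated data. DESeq2 1.42.0, other scalings, filters, prior counts and a fixed coefficient of variation were alternatives. Log2 CPM used a prior count of 2. A fold against a library at 0 is a nominal lower bound, computed with a floor of 3 counts in that library. It leaves out the counting error of the other library. Reads carry no molecular identifiers, so intervals and floors reflect counting error alone. Upstream sequences came from RefSeq GRCm38.p6, and shared 50-base windows from GENCODE M21 transcripts; 11 members had no entry among the upstream sequences. The members and all lists were chosen with earlier results of these data known. The rule for named genes gave values for every member, for Irf7, Irf9, Ifnar1, Ifnar2 and Socs1 and, by size, for up to 6 genes of each list past 2-fold with a mean of at least 5 CPM; other genes were named after their values were seen. Some genes of these lists are not reported here. Marker lists for conventional dendritic cells, neutrophils, erythroid, mast and megakaryocyte cells, later B cells and stress genes are not described further.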

Additional observations from a re-analysis of the deposited data

How the results depend on the processing

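The direction of the difference between the Pax5-/- libraries did not turn on scaling or prior count. Over 4 settings (RLE size factors, library size alone, prior counts of 0.5 and 5), 170 differences of single members counted as unmoved, 6 as moved and 0 as reversed. The 6 were those of Ifit3, Mx1 and Oasl1 under both prior counts. These genes, at 0 in Pax5-/- sample 2, have no counting interval of their own, while other members were judged by theirs. Ifit3b, with a wide interval, counted as unmoved at 6.87 (prior count 2), 7.88 (0.5) and 5.87 (5) on the log2 scale. The highest difference ranged from 7.70 to 11.0 on that scale. The median log2 difference of the members from the wild type was -0.45, and ranged from -2.23 to 1.27 when either Pax5-/- sample was left out; the cause was not tested. With a fixed biological coefficient of variation of 0.4 in place of the estimated 0.203, 6 members were called (Ifi44, Ifit1, Ifit3b, Oasl1, Oasl2 and Rsad2) and the genes called fell from 2130 to 1206; the members' count is again a description, since their choice used the same libraries. RLE, library size, no filter, a mean CPM of at least 1 and DESeq2 called 0 members and between 1851 and 2578 genes. No paired analysis was possible because the groups share only replicate number 1. Counts of 10 or fewer in Pax5-/- sample 2 limit the precision of 12 members' folds.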
